A study of Mus musculus with 4 samples.

Results

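The cytosolic ribosomal protein genes were examined in the bone marrow of obese mice with and without treadmill exercise. The members are all gene names that begin with Rpl or Rps and a digit, together with Rplp0, Rplp1, Rplp2 and Rpsa, without names that hold -ps and without the Rps6k kinases. They numbered 94 of the 55291 gene names in the tables. Of these, 77 are the core genes of the ribosome, with 31 in the small subunit, 43 in the large subunit and 3 in the stalk. The other 17 are paralogs, retrotransposed copies and genes that only share the name. A mean FPKM (the fragments of a transcript, divided by its length and by the size of the library) of at least 0.1 was reached by 92 members, among them all 77 core genes. Rpl10l and Rps12l1 were listed at 0 in all 4 libraries and were not tested.

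All mice were wild-type C57/B6 males that received a high-fat diet (HFD) from the age of 8 weeks. The Ob group stayed on the diet, and the Ob + Exe group in addition ran on a treadmill at moderate intensity for 12 weeks. Poly-A RNA of the tibial marrow was sequenced in 2 libraries of each group, which the methods describe as marrow of mice without stating whether animals were pooled. The p-values rest on the spread between these 2 libraries per group, which the fit blends with the spread of other genes of like level. As tissue the labels give bone marrow, while the fields for cell line and cell type hold mesenchymal stem cells and fibroblast. The summed level of 11 erythroid marker genes ran from 54064 to 82269 scaled FPKM and that of 12 neutrophil marker genes from 28264 to 66305, against 117 to 177 for 12 mesenchymal stem cell and fibroblast marker genes, so the libraries are described here as whole marrow. The transcripts carried from 44310505 to 53038186 read equivalents per library.

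A ribosome holds close to equal copies of its proteins, so the cell has to make their mRNAs in a balanced way. In mammals many of these mRNAs begin with a run of pyrimidines, the TOP element, through which mTOR signaling and Larp1 control their translation. Red cell precursors are known to be sensitive to the loss of a single ribosomal protein gene, which is the cause of Diamond-Blackfan anemia.

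The bases around the transcription start are shown for the 4 lowest and the 4 highest log2 fold changes among core genes with 1 start in the RefSeq promoter table, to let the reader see where the TOP element would lie. Each line holds the 20 bases before and the 20 bases from the RefSeq start on, on the strand of the gene, in GRCm38. Capitals mark the longest run of at least 6 pyrimidines (C or T) that begins with C within 20 bases of the start. A line without capitals has no such run there.
Rps28 (chr17:33824543-33824582, minus strand): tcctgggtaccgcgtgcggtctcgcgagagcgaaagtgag
Rpl28 (chr7:4792945-4792984, plus strand): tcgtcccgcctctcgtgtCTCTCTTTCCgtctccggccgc
Rpl35 (chr2:39005112-39005151, minus strand): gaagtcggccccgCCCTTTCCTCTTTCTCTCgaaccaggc
Rps10 (chr17:27635225-27635264, minus strand): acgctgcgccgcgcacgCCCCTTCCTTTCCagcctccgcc
Rplp2 (chr7:141447631-141447670, plus strand): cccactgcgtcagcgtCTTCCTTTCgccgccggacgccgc
Rpl10 (chrX:74270796-74270835, plus strand): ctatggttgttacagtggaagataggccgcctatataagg
Rpl37 (chr15:5116593-5116632, plus strand): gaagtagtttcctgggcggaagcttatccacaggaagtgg
Rpl26 (chr11:68901546-68901585, plus strand): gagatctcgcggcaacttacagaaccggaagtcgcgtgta

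In the promoter table, 57 of the 77 core genes were found. A pyrimidine run was present at the start of 38 of these 57 genes (66.7%), against 34.8% of all 27025 genes in the table. The letters CCGGAAG, which occur in binding sites of ETS factors such as GABP, were present on either strand of the 300-base window in 24 of the 57 genes (42.1%), against 9.93% of all genes. The letters AAGATGG, which occur in binding sites of YY1, were present in 9 of the 57 genes (15.8%), against 7.28% of all genes. The median log2 fold change was -0.12 over the core genes with a pyrimidine run and 0.03 over those without one. A RefSeq start can lie some bases from the start used in marrow, so a missing run says only that these letters are not in this window.

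The core genes were among the most abundant mRNAs of the marrow, and their levels spanned a wide range. Levels are given as scaled FPKM, that is, FPKM divided by a factor that evens out the libraries, and are per length of transcript. The mean over the 4 libraries had a median of 495.1 over the core genes, with quartiles at 317 and 757. Rplp1, an acidic protein of the stalk that recruits elongation factors, was highest with a mean of 2077. It was followed by Rps3a1 with 1715, Rpl17 with 1297, Rps14 with 1269 and Rplp0, the base of the stalk, with 1264. Rpl21 was lowest with 84.6, after Rpl15 with 116, Rps20 with 150.3, Rps15a with 185 and Rpl11 with 186. In scaled FPKM the highest mean was 24.6 times the lowest. The order of the core genes was much alike in all libraries, with a Spearman correlation across the 77 genes from 0.859 to 0.964 between pairs of libraries, which share gene lengths and annotation.

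Together the members held 10.01% and 10.9% of the library FPKM in Ob against 11.8% and 8.00% in Ob + Exe. Ob had a mean of 10.5% ± 0.634 (SD, n = 2), and Ob + Exe one of 9.92% ± 2.71 (SD, n = 2). The 2 Ob + Exe libraries stood on both sides of the Ob libraries, and the difference of 0.539 percentage points between the means was smaller than the spread within Ob + Exe. No two-sided permutation test of 2 against 2 libraries can give a p below 0.333. Counted in read equivalents, the members held 4.84% and 5.08% in Ob against 5.56% and 3.89% in Ob + Exe.

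Ob + Exe 2, the library with the lowest ribosomal protein share, had the highest sums of erythroid and neutrophil markers. The erythroid sum was 73267 and 72989 in Ob against 54064 and 82269 in Ob + Exe. The neutrophil sum was 49470 and 28264 in Ob against 36891 and 66305 in Ob + Exe. These genes alone held from 21.3% to 29.8% of the library FPKM. Without them in the denominator, the members held 13.7% and 14.2% in Ob against 15.0% and 11.4% in Ob + Exe, so the order of the libraries was the same. The order alone does not show how much these genes weigh on the share. The part of the cell makeup in the share was not tested, and in bulk marrow fewer cells of a type and less RNA per cell cannot be told apart.

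**Figure D1:**
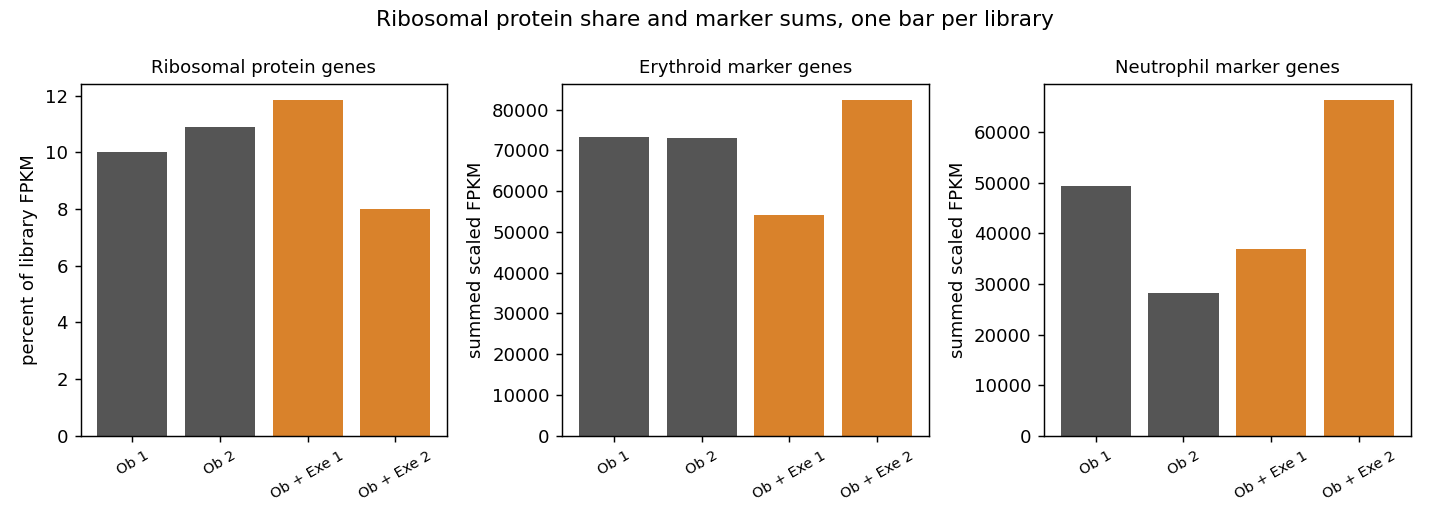
Share of library FPKM held by the 94 ribosomal protein genes (left, percent) and the summed scaled FPKM of the erythroid and neutrophil marker genes (middle and right), with 1 bar per library in grey for Ob and orange for Ob + Exe. Ob + Exe 1 has the highest ribosomal protein share (11.8%) and Ob + Exe 2 the lowest (8.00%), while Ob + Exe 2 has the tallest bar in both marker plots.

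The comparison of Ob + Exe with Ob asked which ribosomal protein mRNAs differed in the marrow of the exercised mice. The core genes did not move as 1 block. Of 77 genes, 47 had a log2 fold change below 0 and 30 above 0, with a median of -0.08 and a range from -1.05 to 0.59, against a median of -0.02 over all 18582 genes tested. The core median was -0.26 without Ob + Exe 1 and 0.01 without Ob + Exe 2, so its sign rested on the latter library. A gene was called at an unadjusted p under 0.05 with a log2 fold change beyond 1. One member, Rps28, was called, lower in Ob + Exe, where 2.74% of all genes tested were called lower and 0.996% higher. No gene of the table had an adjusted p under 0.73, and the smallest among the core genes was 0.96 (limma, Benjamini-Hochberg), so no member passes a correction over all genes.

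At an unadjusted p under 0.05 without a minimum fold, 8 core genes were lower in Ob + Exe and 0 were higher. That is 10.4% of the core genes, where 3.48% of all genes tested were lower and 1.57% higher by the same rule. In 29 core genes (37.7%) the Ob + Exe pair lay wholly below the Ob pair, against 18.4% of all genes tested. In 7 core genes (9.09%) both lay above, against 14.3%. Among the 552 other genes that were at least as abundant as the lowest core gene, 10.3% did not overlap in the lower and 17.2% in the higher direction, and 1.99% were lower at an unadjusted p under 0.05. The core genes share the same 4 libraries, so their counts are not independent. Over all 92 members tested the counts were 32 lower and 7 higher, which became 37 and 3 when the libraries were not scaled, a setting that moved the median of all genes to -0.10.

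Some marker lists of other cell types moved in the same direction as these counts, and others did not. Among all genes tested 2.74% were called lower and 0.996% higher. Of 11 B lineage genes 10 had a log2 fold change below 0 and 2 were called lower, and their summed scaled FPKM was 223 and 235 in Ob against 177 and 144 in Ob + Exe, without overlap. Of 8 megakaryocyte and platelet genes all 8 were below 0 and 2 were called lower, with sums of 478 and 356 in Ob against 389 and 146 in Ob + Exe. Here the groups overlapped, and Ob + Exe 2 stood far below the other libraries. Of 10 proliferation genes 8 were below 0, with sums of 1349.6 and 1475 in Ob against 1210.2 and 1425 in Ob + Exe, which also overlapped. Of 11 erythroid genes 7 were below 0, and of 12 neutrophil genes 1 was. Of 9 monocyte and macrophage genes 6 were below 0, and of 7 stem and progenitor genes tested 5 were, with 1 called lower. Of 12 mesenchymal stem cell and fibroblast genes 6 were below 0, with 1 called lower. Among 10 T and NK genes 3 were below 0 and 7 above. Among 4 adipocyte genes tested 2 were below 0. Among 4 skeletal muscle genes tested 0 were below 0, and 1 was called higher. The part of these cell types in the ribosomal protein counts was not tested.

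The 2 subunits differed in the share of genes in the lower direction and were alike in the higher. In the large subunit 20 of 43 genes (46.5%) did not overlap in the lower direction and 4 (9.30%) in the higher. The median log2 fold change was -0.16. In the small subunit it was 9 of 31 (29.0%) and 3 (9.68%), with a median of -0.05. Among all genes tested 18.4% did not overlap in the lower direction and 14.3% in the higher. All 3 stalk genes overlapped. The difference between the subunits was not tested.

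**Figure D2:**
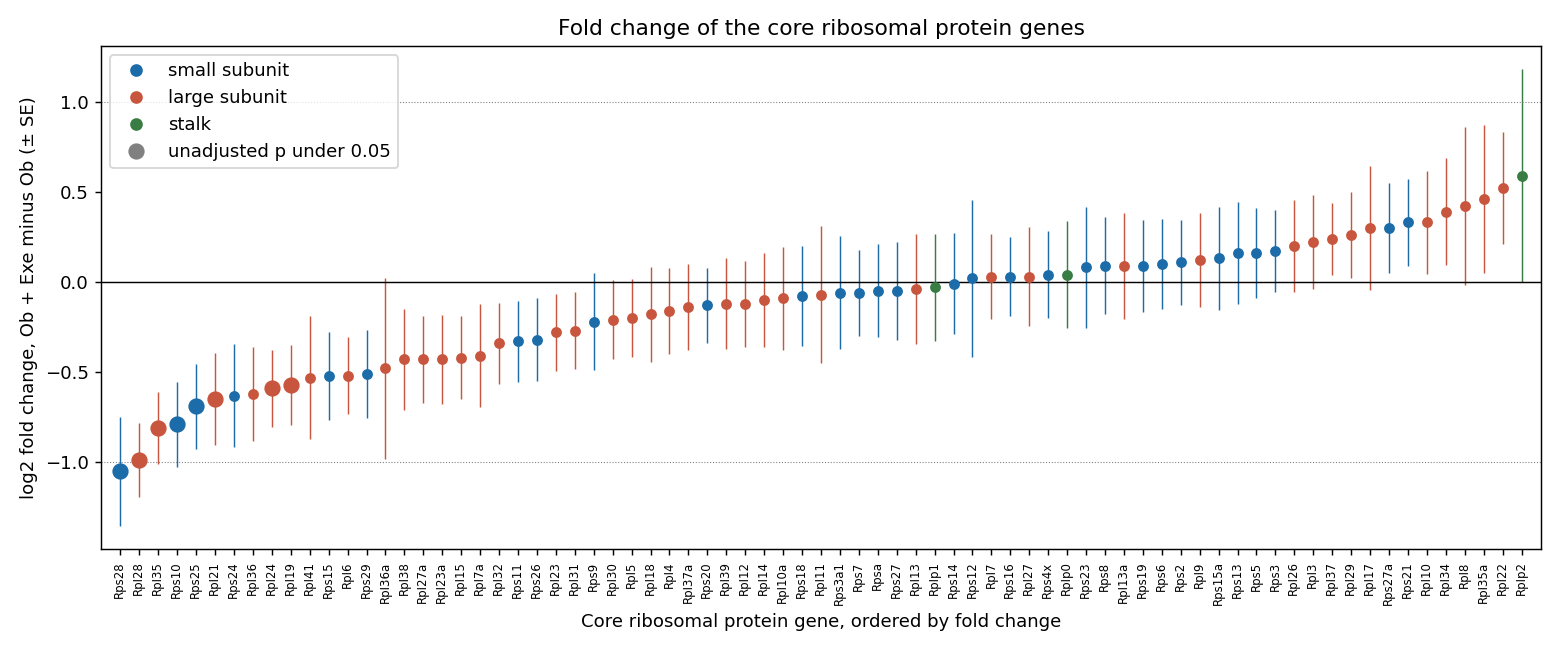
Log2 fold change of scaled FPKM (Ob + Exe minus Ob) with its SE for the 77 core genes in order, 75 of them drawn, in blue for the small subunit, red for the large subunit and green for the stalk, with larger points where the unadjusted p is under 0.05. The 8 larger points all lie on the lower side, from Rps28 at -1.05 to Rpl19 at -0.57, and Rplp2 lies at the upper end at 0.59 with the widest SE.

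Rps28, a small protein of the 40S subunit, measured 253 and 266 scaled FPKM in Ob against 95.6 and 165 in Ob + Exe. Both Ob + Exe libraries were well below both Ob libraries, but they also stood apart from each other. The log2 fold change was -1.05 ± 0.303 (SE), with an adjusted p of 0.96 by limma. It rested on 6817 and 7105 read equivalents in Ob and on 2221 and 3578 in Ob + Exe. The call was lost when Ob 1, Ob 2 or Ob + Exe 1 was left out, with log2 fold changes of -1.09, -1.02 and -0.67, and without an intensity trend in the fit.

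Rpl28, a protein of the 60S subunit, measured 247 and 283 in Ob against 129 and 137 in Ob + Exe. The groups were far apart in relation to their spread. The log2 fold change was -0.99 ± 0.205 (SE), with an adjusted p of 0.96 by limma, just short of the fold needed for a call. The gene (chr7:4792874-4795066, plus strand) overlaps Ube2s, and reads of the 2 genes cannot be told apart where the kit keeps no strand. Likewise, Rps28 (chr17:33819027-33824562, minus strand) overlaps Kank3. At least 1 other annotated gene overlaps 46 of the 77 core genes. Among the other genes lower at an unadjusted p under 0.05, Rpl35 overlaps Arpc5l and Wdr38, and Rps25 overlaps Ccdc84 and Trappc4. Rps10, Rpl24, Rpl19 and Rpl21 overlap genes with Gm names.

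Rpl35, which lies beside the exit of the peptide tunnel, measured 270.1 and 278 in Ob against 157 and 156 in Ob + Exe. It had the tightest replicates of the lower genes. The log2 fold change was -0.81 ± 0.197 (SE), with an adjusted p of 0.96 by limma. Rps10, a protein of the 40S head that is tagged with ubiquitin when ribosomes collide, measured 559 and 467 in Ob against 272 and 322 in Ob + Exe, with a log2 fold change of -0.79 ± 0.236 (SE) and an adjusted p of 0.96 by limma. The groups of Rps10 did not overlap, and the mean was 42.1% lower in Ob + Exe.

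The other 4 of these genes had smaller differences. Rps25, known for its role in internal initiation by viral mRNAs, measured 453 and 357 in Ob against 231 and 268 in Ob + Exe (log2 fold change -0.69, but 0.21 when the highest transcript of the gene was taken in place of the sum). Rpl21 measured 84.6 and 123 against 70.5 and 60.1 (-0.65), which became -0.39 without Ob 2, -0.93 without Ob 1 and -2.53 with the highest transcript. Rpl24 measured 399 and 379 against 272 and 244 (-0.59), and Rpl19 measured 478 and 399 against 293 and 297 (-0.57). In all 4 genes both Ob + Exe libraries were the lower ones, and the narrowest gap between the groups was that of Rpl21.

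In the higher direction the 5 non-overlapping core genes with the largest fold changes were Rpl22, Rpl34, Rps21, Rps27a and Rpl37, and none of them had an unadjusted p under 0.05. Rps27a, which is made as a fusion with ubiquitin, measured 915 and 959.7 in Ob against 1191 and 1121 in Ob + Exe (log2 fold change 0.30). Rps21 measured 585 and 660.1 in Ob against 825 and 744 in Ob + Exe (0.33). Rpl37 measured 198 and 191 in Ob against 237 and 223 in Ob + Exe (0.24). In these 3 genes the 2 Ob + Exe libraries lay close together. Rpl34 measured 495 and 536 in Ob against 848 and 541 in Ob + Exe (0.39), and Rpl22, an RNA-binding protein needed for T cell development, measured 194 and 209 in Ob against 382 and 219 in Ob + Exe (0.52). In Rpl34 and Rpl22 only Ob + Exe 1 stood clearly above the Ob libraries.

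The 2 Ob + Exe libraries differed more from each other in the ribosomal protein genes than the 2 Ob libraries did. The median size of the log2 difference within a pair was 0.36 in Ob + Exe and 0.14 in Ob. Among the 552 other abundant genes it was 0.35 and 0.23. Ob + Exe 1 was above Ob + Exe 2 in 61 of 77 core genes, while Ob 1 was above Ob 2 in 40. Relative to the mean of Ob, the median core gene was at 0.02 in Ob + Exe 1 and at -0.25 in Ob + Exe 2.

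Within Ob + Exe, 6 core genes differed by more than 1 on the log2 scale, and none did within Ob. Rplp2, the partner of Rplp1 in the stalk, measured 495 and 807 in Ob against 1720 and 526 in Ob + Exe, and its log2 fold change was -0.28 without Ob + Exe 1 but 1.43 without Ob + Exe 2. Rpl8, a protein near the peptidyl transferase center, measured 490 and 530 in Ob against 1058 and 438 in Ob + Exe. Rpl35a measured 363 and 389 in Ob against 782 and 343 in Ob + Exe. In these 3 genes Ob + Exe 1 was far above the other 3 libraries, which lay close together in Rpl8 and Rpl35a. Rps12 measured 943 and 1253 in Ob against 1634 and 738 in Ob + Exe. Rpl36a measured 232 and 279 in Ob against 313 and 107 in Ob + Exe, and Rpl11 measured 210 and 161 in Ob against 251 and 122 in Ob + Exe. In Rpl36a the low value of Ob + Exe 2 stood apart instead.

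**Figure D3:**
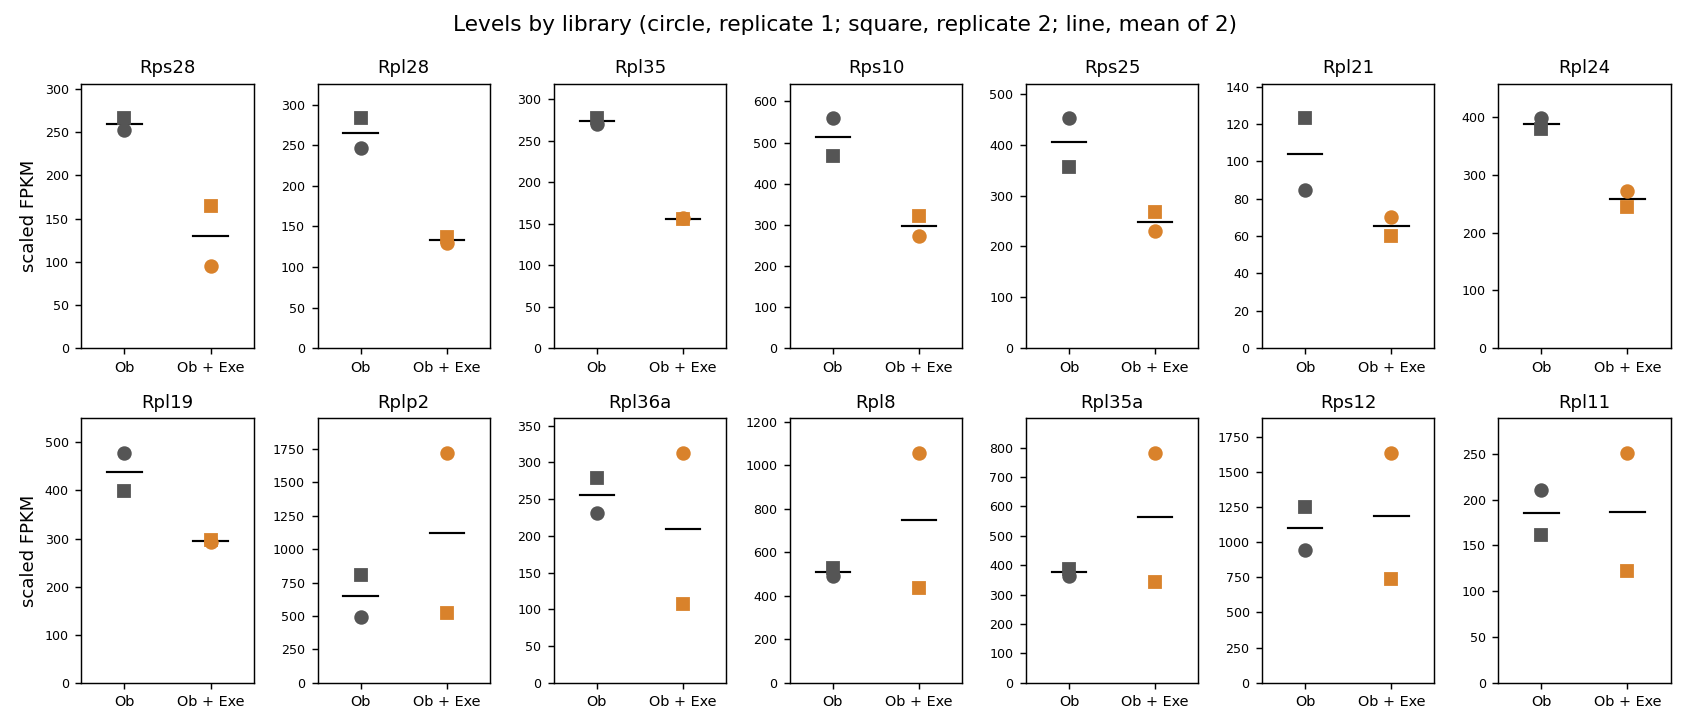
Scaled FPKM of 14 core genes by library, with circles for replicate 1, squares for replicate 2 and a line at the mean of each group. The first 8 genes (Rps28 to Rpl19) have both Ob + Exe points below both Ob points, and the last 6 (Rplp2 to Rpl11) have Ob + Exe points more than 1 log2 unit apart.

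StringTie divides the reads over a gene among its transcripts, and FPKM weighs each transcript by its length, so part of a difference in FPKM can come from this division. The core genes had from 1 to 19 transcripts each, 473 in all. In 25 of the 77 genes the leading transcript was not the same in all 4 libraries. For Rpl8, the 851-base transcript held 54.4% and 53.0% of the gene in Ob, 99.4% in Ob + Exe 1 and 0.125% in Ob + Exe 2, where a 1020-base transcript held 99.6%. For Rplp2, a 449-base transcript held 2.84% and 5.24% in Ob, 50.6% in Ob + Exe 1 and 1.29% in Ob + Exe 2. For Rpl22, a 474-base transcript held 6.17% and 9.34% in Ob, 66.2% in Ob + Exe 1 and 7.21% in Ob + Exe 2. The library with the higher FPKM of Rplp2 and Rpl22 was thus the one in which the short transcript held its largest share.

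Some genes kept 1 pattern of transcripts in every library. The 1351-base transcript of Rpl3, a protein of the peptidyl transferase center, held from 80.5% to 90.1%. For Rps24, which is known for alternative splicing near its 3′ end, a 1613-base transcript held from 78.8% to 81.1%. Rpl13a did not: its 1047-base transcript held 23.1%, 19.2% and 16.9% in Ob 1, Ob 2 and Ob + Exe 2, but 79.1% in Ob + Exe 1. For Rps28 the 2 main transcripts are nearly equal in length (392 and 382 bases), so their division has little weight on its FPKM.

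Read equivalents (coverage times length over 150 bases) do not depend on how the reads of a gene are divided. On this scale the log2 fold change stayed within 0.1 of that from FPKM for 59 of the 77 core genes and differed by more than 0.2 for 6. Among these, Rpl22 went from 0.52 to 0.02, Rpl15 from -0.42 to -0.04, Rps25 from -0.69 to -0.31 and Rplp2 from 0.59 to 0.38, while Rps15a went from 0.13 to 0.35. The 4 genes with the lowest fold changes moved little. Rpl28 was at -1.14, Rps28 at -1.06, Rpl35 at -0.80 and Rps10 at -0.72 by limma voom, and both Rpl28 and Rps28 were called. By voom 10 core genes were lower at an unadjusted p under 0.05, of which 7 were also among the 8 of the FPKM fit, and the smallest adjusted p was 0.96. The Ob + Exe pair lay wholly below the Ob pair in 28 core genes and wholly above it in 6, and 25 and 5 of these were the same genes as in FPKM.

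**Figure D4:**
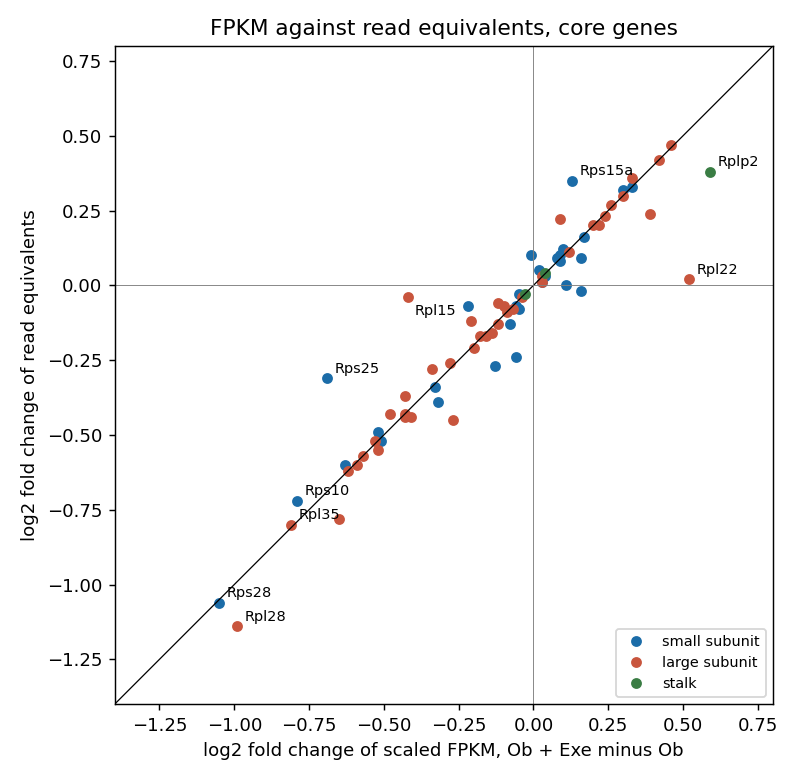
Log2 fold change (Ob + Exe minus Ob) of 75 of the 77 core genes from scaled FPKM (horizontal) and from read equivalents (vertical), with the line of equal values. Most points lie on the line, Rps28, Rpl28, Rpl35 and Rps10 among them or near it, while Rpl22 (0.52 and 0.02), Rps25 (-0.69 and -0.31), and Rpl15 lie off it.

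The Diamond-Blackfan anemia and 5q genes did not all move alike. Of 12 core genes on this list, 9 had a log2 fold change below 0 and 3 above, with a median of -0.14. The groups did not overlap in 5 of the 12 (41.7%) in the lower direction and in 1 (8.33%) in the higher. Among all genes tested these shares were 18.4% and 14.3%. By limma 0 of the 12 were called, and 1 of them, Rps10, had an unadjusted p under 0.05 (2 by voom). Rps19, the gene most often mutated in the disease, measured 654 and 801 in Ob against 827 and 722 in Ob + Exe (log2 fold change 0.09). Rps14, the gene lost in the 5q syndrome, measured 1264 and 1269 in Ob against 1108 and 1437 in Ob + Exe (-0.01). The groups overlapped in both genes.

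Rpl5 and Rpl11, which bind Mdm2 together with the 5S rRNA, had different patterns. Rpl5 measured 314 and 268 in Ob against 256 and 248 in Ob + Exe (-0.20), without overlap, while Rpl11 overlapped (-0.07). Rps24 measured 519 and 682 against 455 and 327 (-0.63), Rps29 measured 586 and 574 against 358 and 462 (-0.51), and Rps26 measured 629 and 580.1 against 456 and 515 (-0.32). These 3 genes of the small subunit did not overlap between the groups. Rpl26 did not overlap in the other direction, with 905 and 875 in Ob against 1107 and 947 in Ob + Exe (0.20). Rps7 (-0.06) and Rpl35a (0.46) overlapped.

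Paralogs of the core genes were lower than the genes they resemble. Rpl22l1 had a mean of 181 beside 251 for Rpl22, Rpl36al 128 beside 233 for Rpl36a, Rps27l 107 beside 851 for Rps27, Rpl7l1 18.1 beside 644 for Rpl7 and Rps4l 7.23 beside 805 for Rps4x. Rpl3l, the form of heart and skeletal muscle, had 0.28 beside 440.1 for Rpl3, and Rpl39l 0.21 beside 752 for Rpl39. Rpl10l was listed at 0 beside a mean of 752 for Rpl10. Rpl22l1, which can take the place of Rpl22, measured 173 and 205 in Ob against 143 and 202 in Ob + Exe (log2 fold change -0.14). Rpl36al measured 142 and 138 in Ob against 122 and 109 in Ob + Exe (-0.28), and Rps27l, a target of p53, measured 107 and 117 in Ob against 107 and 98.2 in Ob + Exe (-0.13). The groups of Rpl36al and Rps27l did not overlap and those of Rpl22l1 did, and none of the 3 had an unadjusted p under 0.05. Of the 9 listed paralogs and retrotransposed copies tested, 2 did not overlap in the lower direction (22.2%) and 0 in the higher. Among all genes tested these shares were 18.4% and 14.3%. Rpsa, which is also known as the laminin receptor, measured 699 and 607 in Ob against 714 and 556 in Ob + Exe (-0.05).

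Copies that are nearly the same in sequence limit how reads can be assigned. The coding sequence of Rps27 is shown beside that of Rps27l, with the bases that differ from Rps27 in capitals, because the retrotransposed copy Rps27rt, in contrast to Rps27l, shares every base of it. Both are spliced coding sequences of GENCODE vM21 in GRCm38, 255 bases long.
Rps27 (chr3:90212522-90213651, minus strand): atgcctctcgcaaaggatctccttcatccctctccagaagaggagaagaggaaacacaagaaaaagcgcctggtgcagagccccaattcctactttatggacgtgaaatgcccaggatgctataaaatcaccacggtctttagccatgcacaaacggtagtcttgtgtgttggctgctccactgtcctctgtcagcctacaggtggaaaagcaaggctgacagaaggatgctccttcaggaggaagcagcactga
Rps27l (chr9:66946086-66949516, plus strand): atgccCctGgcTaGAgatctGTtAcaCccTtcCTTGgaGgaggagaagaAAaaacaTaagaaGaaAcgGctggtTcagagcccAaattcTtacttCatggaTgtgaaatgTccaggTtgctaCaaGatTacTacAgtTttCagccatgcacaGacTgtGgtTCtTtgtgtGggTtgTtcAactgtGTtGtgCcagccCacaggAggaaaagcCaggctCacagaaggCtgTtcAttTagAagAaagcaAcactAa

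Rps27l differs from Rps27 at 61 of the 255 bases (76.1% identity). The coding sequence of Rps27rt (chr9:114982366-114982739, minus strand) is the same as that of Rps27 over all 255 bases. Rps27 measured 999.8 and 742 in Ob against 789 and 872 in Ob + Exe, and Rps27rt 85.2 and 77.7 in Ob against 125 and 77.6 in Ob + Exe. The division between Rps27 and Rps27rt is therefore uncertain, and both overlapped between the groups.

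Annotated pseudogenes were taken as copies if they resembled a core gene at 90% identity over at least 100 bases, or fewer for short coding sequences. These numbered 1074 and belonged to 76 of the 77 core genes. Pooled over the core genes, the copies held from 3.95% to 4.26% of the read equivalents of core genes and copies together. Adding the copies to their core genes moved the log2 ratio of read equivalents by 0.10 at most, in Rpl23. Rpl21 has 81 copies, which held 91.2 and 90.9 read equivalents per 1000000 in Ob against 47.3 and 41.5 in Ob + Exe, next to 124 and 153 and 88.9 and 72.0 for the gene. With its copies the log2 ratio of Rpl21 went from -0.78 to -0.88. That of Rps28 went from -1.06 to -1.15 and that of Rps10 from -0.72 to -0.73. In these genes, too, the copies held a larger part than in the pool. On the same scale, the copies of Rps10 held 189 and 164 in Ob against 86.9 and 123 in Ob + Exe. The gene itself held 379 and 322 against 196 and 229. The copies of Rps28 held 48.8 and 47.1 in Ob against 10.2 and 29.5 in Ob + Exe. Rps28 itself held 127 and 135 against 47.8 and 83.0.

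Among the ribosome subunits with other names, Fau, the ubiquitin-like fusion that gives the small subunit protein Rps30, measured 845 and 862 in Ob against 1552 and 923 in Ob + Exe (log2 fold change 0.49). Rack1, a scaffold of signaling proteins on the small subunit, measured 517 and 462 in Ob against 480 and 461 in Ob + Exe (-0.06). The groups overlapped in Rack1 and not in Fau, where Ob + Exe 1 was again far above the rest.

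Other lists of the translation machinery had few calls. The lists with 0 calls by limma held 3 genes with an unadjusted p under 0.05, 1 initiation factor and 2 biogenesis genes, and voom gave 0 calls and the same counts in these lists. Among 5 elongation factors 0 were called, and the median log2 fold change was -0.27. Eef2, which moves the ribosome along the mRNA, measured 447 and 382 in Ob against 323 and 354 in Ob + Exe (-0.29), and Eef1a1, which delivers aminoacyl-tRNA, measured 2264 and 1839 in Ob against 1544 and 1714 in Ob + Exe (-0.33). Neither gene overlapped between the groups. Thus 2 of the 5 elongation factors (40%) did not overlap in the lower direction and 0 in the higher. Among all genes tested these shares were 18.4% and 14.3%. Among 30 initiation factors 0 were called (median -0.09), with 5 non-overlapping lower (16.7%) and 4 higher (13.3%). Of these factors Eif3h had the smallest p, with 113 and 96.0 in Ob against 61.8 and 77.1 in Ob + Exe (-0.59).

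Other TOP mRNAs were not called either, at 0 of 7 with a median of -0.12. Npm1, a nucleolar chaperone, had the smallest p among them, with 248 and 268 in Ob against 205 and 184 in Ob + Exe (-0.41). On read equivalents the log2 fold change of Npm1 was -0.17. Among 68 ribosome biogenesis genes 0 were called (median -0.11), with 16 non-overlapping lower (23.5%) and 6 higher (8.82%), where all genes tested had 18.4% and 14.3%. Nop10, a protein of the box H/ACA particles that make pseudouridine, measured 19.0 and 12.97 in Ob against 10.02 and 8.11 in Ob + Exe (-0.79). Among 16 genes that control TOP mRNAs 0 were called (median 0.00), and Myc measured 22.8 and 24.9 in Ob against 18.6 and 17.1 in Ob + Exe (-0.42). The read equivalents gave -0.80 for Nop10 and -0.29 for Myc.

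Of 13 dedicated chaperones and rescue factors 1 was called, in the lower direction (7.69%, where 2.74% of all genes were). Tsr2, the chaperone of Rps26 and itself a Diamond-Blackfan anemia gene, measured 4.98 and 8.75 in Ob against 3.33 and 1.34 in Ob + Exe (log2 fold change -1.59 ± 0.527 SE, adjusted p of 0.96 by limma). On read equivalents its log2 fold change was -0.66, and the call was lost, with 0 genes of this list called by voom. Among 78 mitochondrial ribosomal protein genes 2 were called, both lower (2.56%, where 2.74% of all genes were), and 3 by voom. Their median was -0.09, with 21 non-overlapping lower (26.9%) and 8 higher (10.3%), beside 18.4% and 14.3% of all genes. Mrpl54 measured 16.9 and 19.9 in Ob against 11.5 and 6.22 in Ob + Exe (-1.11), and Mrps34 measured 11.3 and 23.7 in Ob against 6.03 and 9.01 in Ob + Exe (-1.14).

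Across the 77 core genes, which share the same libraries, the Spearman correlation of the log2 fold change was 0.18 with coding length, -0.09 with the GC content of the coding sequence and 0.39 with the mean level. In all, 24 core genes hold at least 1 annotated snoRNA gene in the span of the gene, 34 in total.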

How the data were processed

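The 4 libraries were grouped by their labels, 2 per group. The authors trimmed reads with fastp, removed rRNA reads, aligned the rest to GRCm38 with HISAT2 and quantified GENCODE vM25 transcripts with StringTie. They deposited the FPKM and the coverage (a signal not scaled for depth) of each transcript. The strand setting is not given in the sources used here.

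Transcript FPKM were summed per gene name. After a filter at a mean FPKM of 0.1, values were scaled by median-of-ratios factors. The log2 of the scaled value plus 0.1 went into limma 3.58.1 (R 4.3.3, eBayes with a trend, 2 residual degrees of freedom). Fold changes are on this log2 scale. The authors' test, DESeq2, takes counts, and none were used here. Calls needed both a log2 fold change beyond 1 and an unadjusted p under 0.05, and Benjamini-Hochberg values are over all genes tested. The fit was tested on simulated data. Copies were found with blastn. Depth was from 44310505 to 53038186 read equivalents, and the number of 2 libraries per group limits the precision. The members and lists were chosen with earlier results of these data known. The text names members called, the 5 highest and 5 lowest by level, the 5 largest non-overlapping fold changes in each direction, the stalk genes, Rpsa, paralog pairs, the anemia genes, Fau and Rack1, and from each other list its calls and its smallest p. Rpl24 and Rpl19, the 6 genes that differ within Ob + Exe, the genes that differ between measures, and Eef1a1 were chosen after their values were seen. Some genes that these rules name are not reported here. Alternatives were other minimums, pseudocounts and scalings, voom, no trend, the replicate block, the highest transcript and leaving out each library. Python 3.11.15, pandas and matplotlib were used.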

Additional observations from a re-analysis of the deposited data

How the results depend on the processing

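The count of 1 member called (Rps28) was the same with a minimum FPKM of 1 or none, pseudocounts of 1 or 0.01 and scaling on other genes. It was 2 (Rps28 and Rpl28) without scaling, with quantile normalization and with voom, 0 without the intensity trend, and 6 with the highest transcript of each gene (among them Rps28, Rpl23a, Rpl34, Rps7 and Rps9). Leaving out 1 library gave from 0 to 5 calls: 3 without Ob 1 (Rpl28, Rpl39l and Rpl3l, the last 2 near 0 FPKM), 0 without Ob 2, 2 without Ob + Exe 1 (Rpl36a and Rpl6l) and 5 without Ob + Exe 2 (Rps28, Rpl28, Rpl35a, Rpl8 and Rplp2). Rps28 is thus not called when Ob 1, Ob 2 or Ob + Exe 1 is left out. Over all alternatives its log2 fold change ran from -1.45 to -0.67, with adjusted p from 0.205 to 0.9999. The median log2 fold change of the core genes was -0.17 without scaling and -0.18 with quantile normalization, and ran from -0.26 without Ob + Exe 1 to 0.01 without Ob + Exe 2, so its sign depends on the latter library. The 32 lower and 7 higher non-overlapping members became 37 and 3 without scaling, and from 37 to 61 and from 10 to 42 with 1 library left out, where fewer libraries overlap less often (61 lower without Ob + Exe 1, 42 higher without Ob + Exe 2). The 3 calls in other lists became 1 with no minimum, 0 without the trend and from 0 to 4 with 1 library left out (1 without Ob 1, 0 without Ob 2). The difference in the share of library FPKM ran from -2.46 to 1.38 percentage points with 1 library left out, and the 25 genes with changing leading transcripts from 20 to 23. Of 384 values of 24 named members under the alternatives, 354 were counted as the same. For Rps28 this meant that the call was kept. For the other members it meant that the gene stayed uncalled and moved by less than its SE. The cause of these moves was not tested. The replicate numbers are shared across the groups but no source pairs the mice. The replicate differences correlated at -0.107 over all genes, -0.249 over genes whose mean FPKM was 1 or more and -0.232 over the members, and with the replicate block 1 member, Rps28, was called. With the numbers crossed, an alternative chosen after seeing the data, as were the added copies, 1 member was called.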
